A study of Mus musculus with 4 samples.

Results

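RNA levels of 9 Nlrp genes that are known from the mouse oocyte, leaving out Nlrp5, were compared between control and DMSO-treated mouse 2-cell embryos. The members were taken by symbol (Nlrp2, Nlrp4a, Nlrp4b, Nlrp4e, Nlrp4f, Nlrp9a, Nlrp9b, Nlrp9c and Nlrp14), and all 9 were found among the 30049 Ensembl genes of the table. The embryos were wild type and came from crosses of BDF1 with BDF1 mice, BDF1 being the first-generation hybrid of C57BL/6 and DBA/2. Zygotes were taken 18 h after hCG, the hormone injected to trigger ovulation, and spent 24 h in the embryo culture medium KSOM. The control group had KSOM without DMSO and the treated group KSOM with 2% DMSO (dimethyl sulfoxide, a common solvent and cryoprotectant). Each group had 2 libraries, numbered 1 and 2, and 50 embryos at the 2-cell stage were collected for each group, so RNA came from pooled embryos. The sources do not say whether each library held all or some of these, or whether the libraries of a group came from separate cultures, so p-values measure the spread between these libraries, which may be technical. The values are TPM, the share of a library's transcripts that a gene takes after its reads are divided by transcript length. Summed over the table's genes, control libraries 1 and 2 held 768174 and 780527 TPM, and DMSO libraries 1 and 2 held 772487 and 799166 TPM. TPM values keep no sequencing depth, so the counting error of a single value is unknown. A TPM value is a share of the RNA of a library, so more of a transcript and less of the other RNA in an embryo cannot be told apart.

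NLR proteins carry a nucleotide-binding domain and leucine-rich repeats. Several of them sense pathogens or cell damage, and NLRP3 builds the inflammasome, which activates caspase-1. In rodents the NLRP family has expanded by gene duplication, and many of the copies are made mainly by the growing oocyte, which stores their RNA and protein for the first cleavages. NLRP5 (MATER) is a core protein of the subcortical maternal complex, a protein assembly under the surface of oocytes and early embryos, and NLRP2 and NLRP4F have been described as joining it. Embryos of mothers that lack Nlrp2, Nlrp5 or Nlrp14 develop poorly past the first cleavages. NLRP9B is also known as a sensor of virus in intestinal epithelium, while the roles of NLRP4A, NLRP4B, NLRP4E, NLRP9A and NLRP9C are less clear.

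Of the 9 members, 8 lie on chromosome 7 (GRCm38, positions of GENCODE M21). Nlrp9c (ENSMUSG00000040614, minus strand, chr7:26322473-26403700), Nlrp4a (ENSMUSG00000040601, plus strand, chr7:26435113-26476142) and Nlrp9a (ENSMUSG00000054102, plus strand, chr7:26535023-26575615) lie near each other, with 31413 bases between Nlrp9c and Nlrp4a and 58881 bases between Nlrp4a and Nlrp9a. Nlrp4e (ENSMUSG00000045693, chr7:23301192-23362277) ends 23612 bases before Nlrp5. Nlrp2 (ENSMUSG00000035177, chr7:5298547-5351035), Nlrp4b (ENSMUSG00000034087, chr7:10687789-10730168), Nlrp9b (ENSMUSG00000060508, chr7:19991465-20073306) and Nlrp14 (ENSMUSG00000016626, chr7:107166990-107198102) stand apart from these. Nlrp4f (ENSMUSG00000032999, chr13:65177111-65205977) is the member outside chromosome 7. All are annotated as protein-coding.

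Nlrp9a and Nlrp9c are close copies, and both were called higher in DMSO-treated embryos, as was Nlrp4e. The 150 bases before the RefSeq start of these 3 genes (GRCm38.p6) are therefore shown. Capitals mark matches to CANNTG, the E-box read by basic helix-loop-helix factors, and to CCAAT, searched on both strands. No marked matches overlap in these windows. The windows are chr7:26534873-26535022 on the plus strand for Nlrp9a, chr7:26403701-26403850 on the minus strand for Nlrp9c and chr7:23301042-23301191 on the plus strand for Nlrp4e.
Nlrp9a: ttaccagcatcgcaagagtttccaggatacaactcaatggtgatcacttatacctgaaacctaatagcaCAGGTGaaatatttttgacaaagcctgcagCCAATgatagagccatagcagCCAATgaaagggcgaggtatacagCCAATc
Nlrp9c: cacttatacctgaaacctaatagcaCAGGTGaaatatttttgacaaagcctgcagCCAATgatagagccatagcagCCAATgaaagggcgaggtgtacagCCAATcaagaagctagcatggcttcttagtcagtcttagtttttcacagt
Nlrp4e: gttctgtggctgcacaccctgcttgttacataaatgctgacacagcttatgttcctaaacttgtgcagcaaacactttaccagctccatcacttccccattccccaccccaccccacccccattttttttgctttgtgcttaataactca
The Nlrp9a and Nlrp9c windows were identical at 105 of 106 aligned bases, and each holds 1 match to CANNTG and 3 to CCAAT. The Nlrp4e window holds neither motif. Of the 27025 promoters of RefSeq genes with a window of the same length, 47.3% hold CANNTG, 25.3% hold CCAAT and 1.32% hold CCAAT at least 3 times. These matches are a description of the letters, and binding was not measured.

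The copies can be told apart by short reads where their bases differ. The first 90 coding bases of the 3 Nlrp9 genes (GRCm38, from the start codon) are shown to give the scale of this. Capitals mark the 20 positions at which the 3 genes are not all alike. They lie at chr7:26550812-26550901 (plus strand), chr7:20019172-20019261 (plus strand) and chr7:26394149-26394238 (minus strand).
Nlrp9a: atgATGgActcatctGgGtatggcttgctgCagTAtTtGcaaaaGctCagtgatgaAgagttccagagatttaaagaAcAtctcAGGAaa
Nlrp9b: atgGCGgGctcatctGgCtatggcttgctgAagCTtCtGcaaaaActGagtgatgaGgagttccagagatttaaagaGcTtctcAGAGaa
Nlrp9c: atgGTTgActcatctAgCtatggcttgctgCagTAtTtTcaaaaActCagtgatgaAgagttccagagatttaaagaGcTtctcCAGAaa
Nlrp9a differed from Nlrp9c at 10 of these bases and from Nlrp9b at 15. Over the whole coding sequence, Nlrp9a was identical to Nlrp9c at 87.7% and to Nlrp9b at 84.2% of the aligned bases. Nlrp4a and Nlrp4e were 85.9% identical, and Nlrp4b stood apart from the other Nlrp4 members at 77.8% to 79.0%. Nlrp14 and Nlrp2 had no near copy among the members, with at most 63.1% and 61.3% identity.

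**Figure D1:**
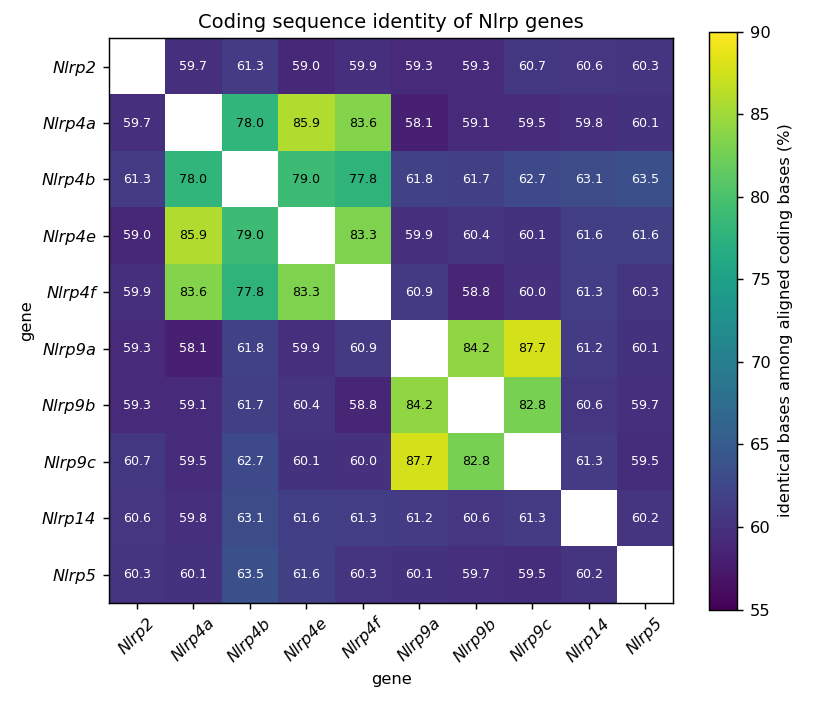
Percent of identical bases among aligned coding bases for each pair of the 9 Nlrp members and Nlrp5, from GENCODE M21 sequences; rows and columns are genes and the colour scale runs from 55 to 90%. The 4 Nlrp4 genes and the 3 Nlrp9 genes form the 2 blocks of high identity.

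The most abundant member was Nlrp9c, at 205 and 174 TPM in control libraries 1 and 2 and at 611 and 376 TPM in DMSO libraries 1 and 2. Nlrp14, a maternal gene the early embryo needs, was at 121 and 74.5 TPM in control embryos against 212 and 158 TPM after DMSO. For both genes the lower DMSO library was above the higher control library. Nlrp4e was at 44.3 and 27.4 TPM without DMSO and 192 and 101 TPM with it, so that it came close to Nlrp14 in the treated group. Nlrp9a was at 28.8 and 10.8 TPM against 121 and 48.6 TPM. Nlrp4f, a member described in the subcortical maternal complex, was at 17.1 and 16.8 TPM against 72.9 and 28.4 TPM. Its control libraries were nearly alike while its DMSO libraries lay far apart. Nlrp4a was at 16.8 and 7.23 TPM in the control pair and 55.2 and 21.7 TPM in the DMSO pair.

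The other 3 members were scarce. Nlrp2 was at 2.88 and 2.19 TPM in control embryos against 7.12 and 4.48 TPM after DMSO. Nlrp4b was at 2.19 and 0.645 TPM against 5.46 and 4.46 TPM. Both kept the DMSO libraries above the control libraries. Nlrp9b was at 1.04 TPM and listed at 0 without DMSO and 2.80 and 0.587 TPM with it, and its groups overlapped. In the control group the order of mean levels was Nlrp9c, Nlrp14, Nlrp4e, Nlrp9a, Nlrp4f, Nlrp4a, Nlrp2, Nlrp4b and Nlrp9b. The ranges of Nlrp4e and Nlrp9a, of Nlrp9a and Nlrp4f, of Nlrp4f and Nlrp4a, and of Nlrp4b and Nlrp9b overlapped, so these neighbours were not separated. The order of means was the same in the DMSO group. There Nlrp14 and Nlrp4e, and Nlrp2 and Nlrp4b, overlapped as well, while Nlrp9b lay below Nlrp4b without overlap.

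**Figure D2:**
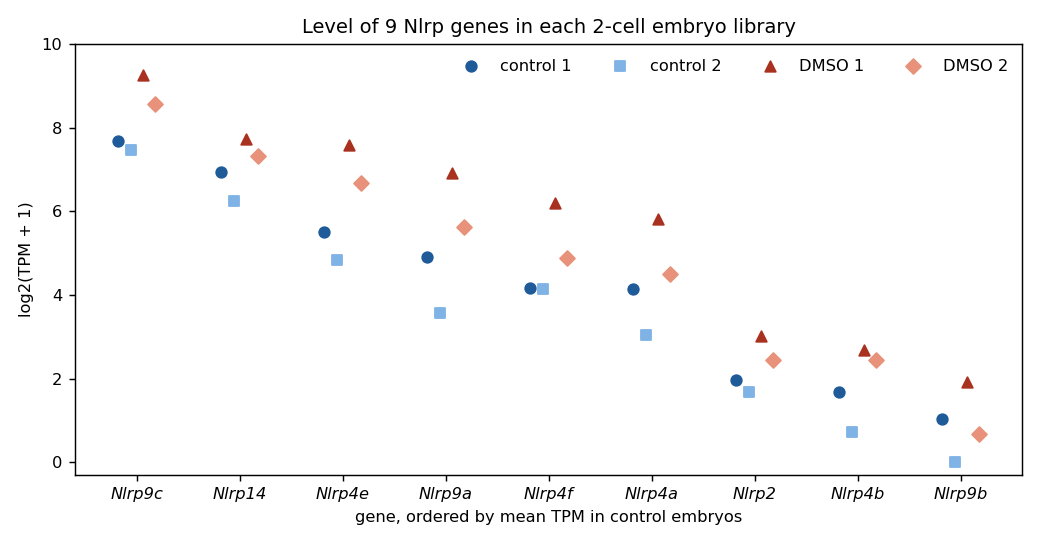
Level of each member as log2(TPM + 1) on the vertical axis, by gene on the horizontal axis in the order of mean TPM in control embryos; each point is 1 library (control 1 and 2, DMSO 1 and 2). Both DMSO libraries lie above both control libraries for 8 of 9 genes, Nlrp9b being the exception. The same holds for 31.1% of the 12038 genes that averaged 1 TPM or more.

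To ask whether DMSO treatment changed these RNAs, limma was run on log2(TPM + 1) for the 12038 genes that averaged 1 TPM or more. limma is a linear model that shares information on variance between genes. The p-values were adjusted over all of these genes by the Benjamini-Hochberg method. All 9 members passed the filter. 3 of 9 members, Nlrp4e, Nlrp9a and Nlrp9c, were called higher in DMSO-treated embryos at an adjusted p-value under 0.05, and 0 were called lower. Over all genes tested 6.42% were called higher and 14.1% lower. Nlrp4e rose by a log2 fold change of 1.97 (SE, the standard error, 0.40, adjusted p = 0.0263 by limma), a ratio of mean TPM of 4.10. Nlrp9a rose by 2.05 (SE 0.57, adjusted p = 0.0493 by limma), a ratio of 4.28, and stood close to the threshold. Nlrp9c rose by 1.34 (SE 0.31, adjusted p = 0.0331 by limma), a ratio of 2.60. Adding 1 TPM before the logarithm makes fold changes of scarce genes smaller than they are.

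The remaining 6 members did not pass the threshold in this fit. Their log2 fold changes were 1.56 for Nlrp4a (SE 0.54, adjusted p = 0.0823 by limma), 1.38 for Nlrp4f (SE 0.45, adjusted p = 0.0719 by limma) and 1.38 for Nlrp4b (SE 0.42, adjusted p = 0.0608 by limma). Nlrp14 had 0.94 (SE 0.33, adjusted p = 0.0816 by limma), Nlrp2 0.92 (SE 0.36, adjusted p = 0.107 by limma) and Nlrp9b 0.78 (SE 0.56, adjusted p = 0.323 by limma). The unadjusted p-value was under 0.05 for 8 members, all but Nlrp9b, and for 40.2% of all genes tested. All 9 estimates were above 0, Nlrp9b having passed the filter only through its DMSO libraries, with a median of 1.38 against -0.09 for all genes tested, of which 46.8% had an estimate above 0. In 8 of 9 members both DMSO libraries were above both control libraries, which was so for 31.1% of all genes tested. The median of the members lay between 0.91 and 1.68 when any single library was left out, and the lowest value came without DMSO library 1. Without that library the log2 fold change was 0.91 for Nlrp4a, 0.71 for Nlrp4f and 0.15 for Nlrp9b, and without control library 2 it was 1.01 for Nlrp4a, 0.90 for Nlrp4b, 0.60 for Nlrp14 and 0.27 for Nlrp9b. The calls needed control library 1, control library 2, DMSO library 1 and the filter. Without control library 1, control library 2 or DMSO library 1, limma called 0 of 12038 genes. In these 3 fits 6, 2 and 2 members had an unadjusted p-value under 0.05, against 31.1%, 21.6% and 25.6% of all genes tested. Without DMSO library 2 it called 5 members (5.04% of all genes were called higher), adding Nlrp4a and Nlrp4f. In each fit that left out a library, 1 library is left in a group and is assumed to vary like the others. With every gene above 0 TPM tested, 0 of 22257 genes were called, and 6 members had an unadjusted p-value under 0.05 (24.1% of all these genes). Nlrp9a lost its call with a pseudocount of 0.1 TPM (5.03% of all genes called higher) and without the mean-variance trend (5.23%), and Nlrp14 gained one with quantile normalization (8.94%). For a gene taken alone, the smallest two-sided p that exact permutation of 2 against 2 libraries can give is 0.33.

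**Figure D3:**
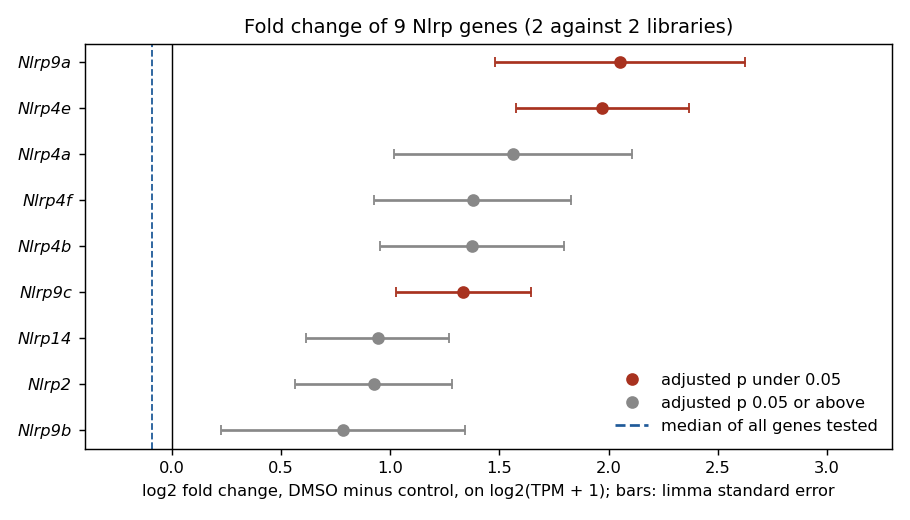
Log2 fold change (DMSO minus control, horizontal axis) of each member on the log2(TPM + 1) scale with the limma standard error as bars, 2 libraries against 2; red points passed the limma threshold and the dashed line is the median of all genes tested (-0.09). All 9 estimates are above 0 (46.8% of all genes tested), from 0.78 for Nlrp9b to 2.05 for Nlrp9a.

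Library 1 was above library 2 for 9 of 9 members in the control group and for 9 of 9 members in the DMSO group. Over all genes tested library 1 was the higher in 61.8% for the control group and in 53.8% for the DMSO group. The 9 genes listed as markers of the 2-cell stage had the same order, 9 of 9 in each group. It was found for 15 and 16 of 18 oocyte genes in the control and DMSO groups, for 4 and 5 of 8 oocyte transcription factors, and for 3 and 2 of 6 genes of the subcortical maternal complex.

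Levels of the members were then set against Nlrp14 within each library, since a shift shared by all members of a library cancels in such a ratio. Nlrp14 was chosen because it shares no 31-base word with another gene, and the ratio was added after the values had been seen. Nlrp4e stood at 0.366 and 0.368 of the Nlrp14 level in the control libraries, which were thus alike, and at 0.906 and 0.642 in the DMSO libraries. Nlrp9a stood at 0.238 and 0.145 of Nlrp14 in the control pair and 0.568 and 0.307 in the DMSO pair. Nlrp4b stood at 0.0181 and 0.00866 against 0.0257 and 0.0282. For Nlrp9c the ratio was 1.70 and 2.34 in control embryos against 2.88 and 2.38 after DMSO, so that control library 2 and DMSO library 2 nearly met. For these 4 genes the ratio was higher in both DMSO libraries, on the log2 scale by 1.05 for Nlrp4e, 1.17 for Nlrp9a, 1.11 for Nlrp4b and 0.39 for Nlrp9c. Each had p = 0.33 in an exact two-sided permutation test, the smallest that 2 against 2 libraries can give. The ratios of Nlrp2, Nlrp4a, Nlrp4f and Nlrp9b overlapped between the groups. Nlrp14 itself had a log2 fold change of 0.94, below the member median of 1.38, and a low value of the reference raises such ratios. How many genes outside the members have a higher ratio in both DMSO libraries was not computed. An exact test of this size could not pass the threshold, so it says nothing on whether the members differed in their response.

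**Figure D4:**
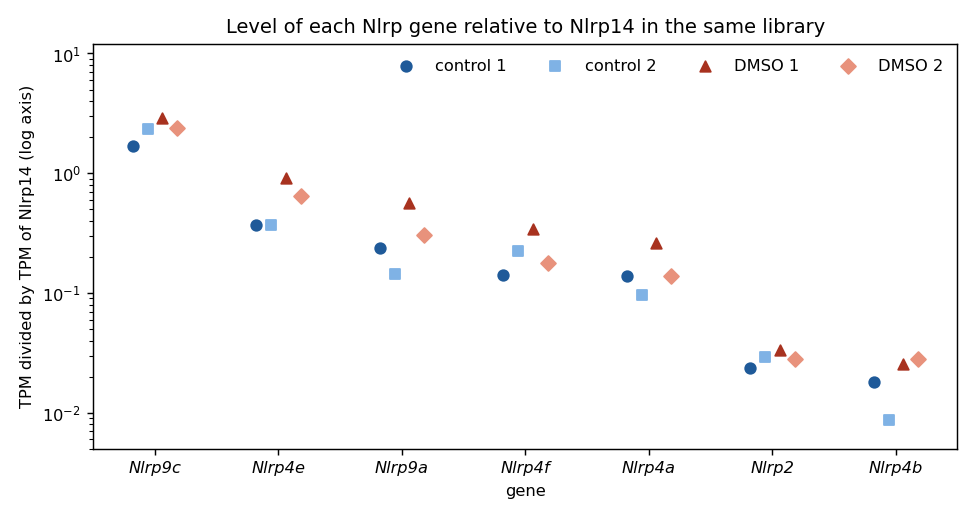
TPM of each member divided by the TPM of Nlrp14 in the same library (vertical log axis), by gene; each point is 1 library, and Nlrp9b is left out because it is listed at 0 in control library 2. The 2 control libraries nearly coincide for Nlrp4e (0.366 and 0.368), with both DMSO libraries above them.

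The 9 members summed to 439 and 314 TPM without DMSO and 1280 and 744 TPM with it, a ratio of means of 2.69. Nlrp9c made up 46.8% and 55.6% of that sum in the control pair and 47.7% and 50.6% in the DMSO pair. The share of Nlrp14 was 27.5% and 23.7% against 16.6% and 21.3%, and that of Nlrp4e 10.1% and 8.74% against 15.0% and 13.6%. A sum over close copies is less affected by how reads are split between them. The 4 Nlrp4 members summed to 80.4 and 52.1 TPM in control embryos against 326 and 156 TPM after DMSO, a ratio of means of 3.64. The 3 Nlrp9 members summed to 235 and 185 TPM against 734 and 425 TPM, a ratio of 2.76. In both sums the DMSO libraries lay above the control libraries.

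The authors quantified the reads with kallisto, which matches 31-base words and divides a read that matches more than 1 transcript among them by an estimate. For Nlrp14 0% of the 31-base words, counted on either strand, occur in transcripts of another GENCODE M21 gene, and for Nlrp4b 0.396%. The shares were 6.30% for Nlrp9c, 6.31% for Nlrp2, 8.02% for Nlrp4a, 11.9% for Nlrp9b, 12.3% for Nlrp9a and 15.9% for Nlrp4f. Nlrp4e had by far the highest share, 52.8%, and 42.0% of its words occur in the pseudogene Gm16443. Gm16443 has no row in the table used here, and with genes of the table alone the share of Nlrp4e was 23.1%, Nlrp4c being the largest contributor at 18.2%. Nlrp4c itself was below 1 TPM in all libraries (0.102 and 0.0719 TPM in the control libraries, 0.536 and 0.175 TPM in the DMSO libraries). Reads that fall in shared words cannot be assigned to Nlrp4e alone, and its level is uncertain to that extent. No gene that shares words with Nlrp2 has a row in the table, and Nlrp2 shares 0% of its words with Gm5065, a gene that overlaps it on the other strand.

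The Nlrp genes outside the 9 members and Nlrp5 were next looked up as a whole. Of 11 such genes 4 passed the filter, with a median log2 fold change of -0.68 (-1.24 to -0.31 over the alternative settings). Nlrp5-ps, a transcribed pseudogene of Nlrp5, measured 24.2 and 20.4 TPM in the control libraries and fell to 9.16 and 8.58 TPM in the DMSO libraries (log2 fold change -1.24, SE 0.29, adjusted p = 0.0335 by limma). It was the only call in this list, so 0 of the 4 were called higher and 1 lower (6.42% and 14.1% of all genes tested). Without control library 1, control library 2 or DMSO library 1 no gene of the table was called. Without DMSO library 2 Nlrp5-ps was not called. Of its 31-base words 52.9% are shared, 39.1% with Vmn1r90. Nlrp12, known from myeloid cells, was at 2.53 and 5.10 TPM against 0.768 and 2.18 TPM (log2 fold change -0.97, adjusted p = 0.158 by limma). Nlrp3 was at 1.29 and 1.32 TPM against 0.408 and 1.19 TPM (log2 fold change -0.39, adjusted p = 0.458 by limma). It passed the filter only through its control libraries. The pseudogene Nlrp4g, of whose 31-base words 19.5% also occur in Nlrp4f, was at 3.96 and 1.15 TPM against 9.46 and 2.98 TPM, with overlapping groups (log2 fold change 0.98, adjusted p = 0.252 by limma). Nlrp1a, Nlrp1b, Nlrp1c-ps, Nlrp4c, Nlrp4d, Nlrp6 and Nlrp10 were below the filter.

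Genes of the NLR family outside Nlrp and of the inflammasome were listed next. Of 11 other NLR genes 3 passed the filter and 0 were called higher or lower (6.42% and 14.1% of all genes tested). Nlrc3, a negative regulator of immune signalling, was the most abundant, near the control level of Nlrp4f, at 17.8 and 14.7 TPM without DMSO and 13.5 and 19.1 TPM with it. Nlrc4 had a log2 fold change of 0.45 (adjusted p = 0.364 by limma) and Ciita, which drives MHC class II genes, of -0.18 (adjusted p = 0.706 by limma). Of 8 inflammasome partners only Gsdmd, the pore protein gasdermin D, passed the filter, at 4.21 and 2.70 TPM against 2.06 and 3.27 TPM (log2 fold change -0.28, adjusted p = 0.593 by limma). The adaptor Pycard was at 1.50 and 0.425 TPM in the control pair and 0.152 and 0.318 TPM in the DMSO pair, and Casp1 was at 0.555 TPM or less in all libraries. Il1b and Mefv were listed at 0 throughout.

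The subcortical maternal complex was compared because Nlrp2 and Nlrp4f are tied to it. Of its 6 genes outside the members 5 passed the filter, with a median log2 fold change of -0.05 that moved between -0.13 and 0.56 over the alternative settings, so no direction was assigned to it. Of the 5 genes 1 was called higher and 0 lower (6.42% and 14.1% of all genes tested). Zbed3, which acts in spindle placement, rose from 386 and 293 TPM in the control libraries to 1298 and 1636 TPM in the DMSO libraries (log2 fold change 2.11, SE 0.27, adjusted p = 0.0181 by limma). Ooep was at 14.0 and 5.66 TPM against 28.8 and 15.8 TPM, with the DMSO libraries above the control libraries (log2 fold change 1.17, adjusted p = 0.123 by limma). Tle6 was at 78.4 and 59.2 TPM against 75.2 and 57.8 TPM, with overlapping groups (log2 fold change -0.05, adjusted p = 0.911 by limma). Khdc3 and Padi6 overlapped between the groups as well, with log2 fold changes of -0.22 (adjusted p = 0.652 by limma) and -0.80 (adjusted p = 0.352 by limma). Nlrp5 itself was listed at 0 and 0.142 TPM in control embryos against 0 and 0.129 TPM after DMSO, so it was not tested. Its neighbour Nlrp4e, 23612 bases away, was among the abundant members. Without control library 1, control library 2 or DMSO library 1, where no gene of the table was called, Zbed3 was not called either.

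Transcription factors of the oocyte were also compared. Of 8 oocyte transcription factors 5 passed the filter, and 4 of these were called higher and 0 lower (6.42% and 14.1% over all genes tested), with a median log2 fold change of 1.30. Nobox, a homeobox factor needed for oocyte growth, passed the filter only through its DMSO libraries and was at 0.322 and 1.28 TPM without DMSO and 3.92 and 5.54 TPM with it (log2 fold change 1.71, adjusted p = 0.0351 by limma). Tbpl2, the TATA-binding protein of the growing oocyte, rose from 3.44 and 1.56 TPM to 23.4 and 7.95 TPM (log2 fold change 2.13, adjusted p = 0.0408 by limma). Lhx8 rose from 2.87 and 3.26 TPM to 11.4 and 7.07 TPM (log2 fold change 1.30, adjusted p = 0.0461 by limma), and Foxo3, which keeps follicles dormant, from 20.4 and 13.2 TPM to 41.9 and 38.2 TPM (log2 fold change 1.24, adjusted p = 0.0393 by limma). Taf4b, at 90.8 and 91.8 TPM against 54.5 and 55.2 TPM, had a log2 fold change of -0.72 (adjusted p = 0.0774 by limma). Figla, Sohlh1 and Sohlh2 were below the filter. The median lay between 1.17 and 1.50 when any single library was left out. Without DMSO library 2 fewer of these factors were called. Without control library 1, control library 2 or DMSO library 1 no gene of the table was called.

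In a list of 18 other oocyte genes all passed the filter, 5 were called higher and 1 lower (6.42% and 14.1% of all genes tested), and the median log2 fold change was 0.96 (0.64 without control library 2 and 1.46 without control library 1). The estimate was above 0 for 14 of the 18 genes (46.8% of all genes tested). Both DMSO libraries were above both control libraries for 12 (31.1% of all genes tested) and below them for 3 (38.7%). Bmp15, a growth factor of the oocyte, rose from 102 and 56.0 TPM to 544 and 285 TPM (log2 fold change 2.36, adjusted p = 0.0221 by limma). Dppa3, which guards maternal DNA methylation, was at 11639 and 15346 TPM in the control pair and 10828 and 15216 TPM in the DMSO pair, with overlapping groups (log2 fold change -0.06, adjusted p = 0.895 by limma). Zar1l, a relative of the maternal-effect gene Zar1, fell from 55.2 and 51.9 TPM to 16.9 and 23.5 TPM (log2 fold change -1.38, adjusted p = 0.0280 by limma). With quantile normalization 9 genes of this list were called higher (8.94% of all genes tested). The calls of this list, like those of the members, needed control library 1, control library 2 and DMSO library 1. No gene of the table was called when any of these was left out. Of 4 genes tied to Nlrp14 or to maternal DNA methylation (Uhrf1, Dnmt1, Dnmt3a and Slc8b1) 0 were called higher or lower (6.42% and 14.1% of all genes tested). The median log2 fold change of these 4 genes was -0.24, and Slc8b1 passed the filter only through control library 2. That median lay between -0.42 (without DMSO library 1) and 0.01 (filter at 5 TPM) over the alternative settings and was -0.01 without control library 2, so no direction was assigned to it. Uhrf1, described as a partner of NLRP14, was at 17.7 and 11.7 TPM against 27.6 and 13.8 TPM, with overlapping groups (log2 fold change 0.42).

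**Figure D5:**
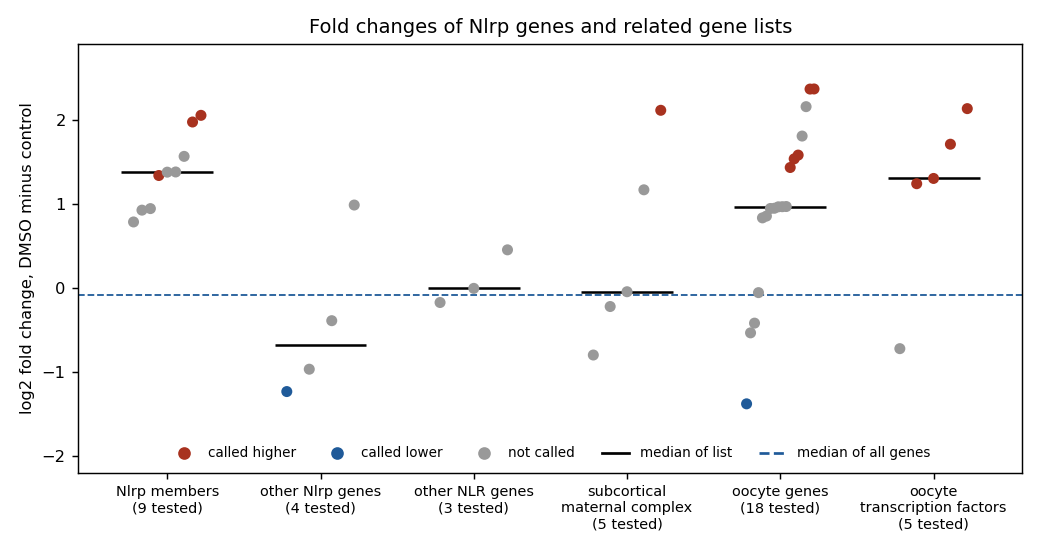
Log2 fold change (DMSO minus control, vertical axis) of each tested gene in 6 lists; red points were called higher, blue points lower and grey points not called, black lines are list medians and the dashed line is the median of all genes tested. The medians are 1.38 for the 9 Nlrp members, 1.30 for the oocyte transcription factors, 0.96 for the oocyte genes, -0.01 for the other NLR genes, -0.05 for the subcortical maternal complex and -0.68 for the other Nlrp genes.

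The labelled stage was checked against marker lists. All 9 genes of the 2-cell stage were above 1 TPM in at least 1 library, with sums of 902 and 660 TPM in control embryos against 2383 and 1659 TPM after DMSO, Tcstv3 being the most abundant. 3 of these genes were called higher and 0 lower (6.42% and 14.1% of all genes tested), with a median log2 fold change of 0.78. Markers of cumulus and granulosa cells, which surround the oocyte, summed to 2.07 and 0.971 TPM without DMSO and 2.58 and 2.28 TPM with it. Of these 10 genes 2 reached 1 TPM in any library, and Amh and Lhcgr were listed at 0 in all libraries. Tnfaip6 was the most abundant on average, while Cyp19a1 was above it in control library 2 and in both DMSO libraries. The 4 sperm genes summed to 2.84 and 3.38 TPM against 13.4 and 8.48 TPM, with Prm2 the most abundant and Tnp2 listed at 0. Prm2 was called higher, as was Tnp1, which passed the filter only through its DMSO libraries. The 4 blood genes summed to 4.83 and 1.68 TPM against 4.24 and 13.9 TPM, with Hba-a1 the most abundant on average, and 0 were called. In DMSO library 2 Lyz2 alone was at 9.39 TPM. The part of the sperm and blood RNA in the results was not tested.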

How the data were processed

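RNA of 2-cell embryos was measured in 4 libraries, 2 per group, grouped by the sample labels. The authors deposited TPM values per gene, made with kallisto on Ensembl transcripts of GRCm38 and summed with tximport. The labels also name STAR, SAMtools and bedtools, and mm10. All 4 columns were used. Gene names and positions came from GENCODE M21 (29668 of 30049 identifiers named) and promoters from RefSeq (8 of 9 members matched, not Nlrp14).

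Genes that averaged 1 TPM or more entered a limma fit (limma 3.58.1, R 4.3.3) on log2(TPM + 1) (eBayes with a trend, no block, Benjamini-Hochberg adjustment, threshold 0.05), after a test on simulated data. The study used DESeq2, a count test that TPM do not allow. The members and lists were chosen with earlier results of these data known, so no p-value is given for a list. Genes named are the members, all other Nlrp genes, the lists, and the 5 genes outside the members (mean of at least 10 TPM) nearest in profile. Alternatives were a pseudocount of 0.1, no filter, a mean of at least 5 TPM, median-ratio scaling, quantile normalization, rescaling without mitochondrial genes, no trend, the replicate block, leaving out each library, and summing copies. Coding sequences were aligned pairwise with Biopython 1.88. Python 3.11.15, pandas 2.3.3, numpy 2.4.6 and matplotlib 3.10.9 were used.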

Additional observations from a re-analysis of the deposited data

How the results depend on the processing

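All 9 members kept an estimate above 0 under every alternative in which they were tested. In the fit reported above, 46.8% of all genes tested had an estimate above 0. Nlrp9b, which passed the filter only through its DMSO libraries, fell to 0.15 without DMSO library 1. The number of members called higher was 3, and it was 2 to 4 under the other pseudocount, filter at 5 TPM (6 members tested), scalings and trend setting. Without the filter on low values 0 members were called, and over all genes 0 were called higher and 0 lower (5368 of 22257 with an unadjusted p-value under 0.05 in limma). Leaving out 1 library gave between 0 and 5 members called higher, and over all genes between 0 and 607 called higher and between 0 and 1276 lower, the 0 coming without control library 1, control library 2 or DMSO library 1 (3745, 2602 and 3078 genes with an unadjusted p-value under 0.05). Over all genes 773 were called higher and 1697 lower, with median-ratio scaling 949 and 1262, and with quantile normalization 1076 and 1121.

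Both groups use the replicate numbers 1 and 2, but no label says what they mark, and the deviations of same-numbered libraries correlated across genes at r = 0.35. With the replicate block 8 members were called higher, all but Nlrp9b, and over all genes 2151 were called higher and 2981 lower. TPM values keep no depth, so the least abundant members, Nlrp2, Nlrp4b and Nlrp9b, have an unknown counting error.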

Other observations

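Among 5661 genes outside the members with a mean of at least 10 TPM, the 5 nearest to the mean centred log2 profile of the 9 members over the 4 libraries were Gm4778, Gm11236, Apela, Map1b and Psmf1, at Euclidean distances of 0.0738 to 0.102. The members themselves lay at 0.361 to 0.864 from their own mean. Apela, a secreted ligand of the apelin receptor, was at 228 and 141 TPM in the control pair and 612 and 319 TPM in the DMSO pair. Psmf1, a regulator of the proteasome, was at 14.4 and 8.19 TPM against 43.4 and 23.3 TPM, and Map1b, a microtubule protein, at 10.3 and 5.54 TPM against 28.4 and 14.4 TPM. None of the 5 passed the limma test, with adjusted p-values from 0.0514 to 0.0757, and Gm11236 shares 97.5% of its 31-base words with other genes. With 4 libraries many genes can share a profile, so this likeness is a description.

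Outside the members, 9 tested genes lie within 100000 bases of a member. Over all genes tested 6.42% were called higher and 14.1% lower. Ceacam20, 361 bases from Nlrp9b, measured 12.8 and 3.57 TPM in the control libraries and rose to 49.0 and 28.0 TPM in the DMSO libraries (log2 fold change 2.26, adjusted p = 0.0384 by limma), while Nlrp9b did not pass the test. Near Nlrp4f, Zfp369 fell from 4.40 and 4.57 TPM to 1.34 and 0.303 TPM (log2 fold change -1.65, adjusted p = 0.0365 by limma). Zfp369 passed the filter only through its control libraries. Gm5065, which overlaps Nlrp2, was at 7.59 and 2.47 TPM against 16.9 and 10.8 TPM (log2 fold change 1.41, adjusted p = 0.0830 by limma). Gm16184, 79068 bases from Nlrp9b, was called higher too (log2 fold change 0.97, adjusted p = 0.0489 by limma). Cyp2b23, 89612 bases from Nlrp9a, passed the filter only through its DMSO libraries, at 0.583 and 0.216 TPM against 5.32 and 2.28 TPM, and was also called. Rbmxl2, 11343 bases from Nlrp14, was at 10.2 and 7.65 TPM against 6.61 and 9.73 TPM. Gm6902, 22292 bases from Nlrp4e, was at 171 and 99.5 TPM against 328 and 205 TPM (log2 fold change 0.99, adjusted p = 0.0963 by limma). Mfsd14b, near Nlrp4f, and Pvr, near Nlrp9b, had log2 fold changes of -0.84 (adjusted p = 0.117 by limma) and -0.08 (adjusted p = 0.898 by limma). The distance was set after the member values were known.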
